A study of Homo sapiens with 2 samples.

Results

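Cytosolic ribosomal proteins are the protein subunits of the ribosome that works outside mitochondria. Family genes were chosen by symbol: RPL or RPS followed by a number, with an optional A, X or L ending, together with the stalk proteins RPLP0, RPLP1 and RPLP2 and with RPSA; pseudogenes, Y-linked copies and the RPS6 kinases were left out. Of 85 such genes in the RefSeq gene table, 60 had a probe set that names them alone, and these 60 genes, on 121 probe sets, are described here among 19775 genes on 54613 probe sets. A further 15 genes, among them RPL5, RPL10, RPS2 and RPS20, are named only beside other genes, and 10, among them RPLP0, RPSA, RPS27A and RPL26, are named on no listed probe set; these were not analysed here gene by gene. The study compared 2 samples of HL60, an established line of human promyelocytic leukaemia cells: 1 was untreated, and 1 was given eltrombopag at 3 µg/ml for 36 h. Eltrombopag, an oral drug, activates the thrombopoietin receptor and chelates iron. Both cultures grew in RPMI with 10% serum, and no vehicle or culture time is named for the untreated sample. With 1 array per group there is no replicate, so no test, SD between samples or p-value is given, and a drug effect cannot be told apart from a difference between 2 cultures or 2 arrays.

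The large (60S) subunit joins amino acids and holds the exit tunnel for the new chain, and the small (40S) subunit reads the mRNA. Cells make the subunits in matched amounts, and a ribosomal protein with no ribosome to join is degraded. Transcripts of most of these genes begin with a C and an unbroken run of pyrimidines, the 5′ terminal oligopyrimidine (TOP) tract, through which mTORC1 and the RNA-binding protein LARP1 govern their translation and stability. An array reads transcript amount only, not translation. The family has many processed pseudogenes and near-identical copies, so its probe sets can bind other transcripts. On this array the suffix _x_at marks probe sets with probes that also match unrelated sequences, _s_at marks probe sets shared by several transcripts, and a plain _at marks probe sets with neither note.

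Each value is a MAS5 signal, the brightness of 1 probe set on a linear scale. Ratios are eltrombopag over untreated, on a log2 scale unless a fold is named. A signal of 56.9, the 60th percentile of both samples pooled, served as the floor: lower signals were raised to it, and a gene with at least 1 sample at or above it is called measured. The brightest probe set stands for a gene unless another is named. The median ratio of all 10314 measured genes was -0.12, so a member near -0.12 stood with the array as a whole; after median centring, quantile normalization or lowess it was -0.02, -0.01 or -0.03. The one spread these arrays offer comes from several probe sets for the same gene, whose SD was 0.23 over the family; it does not measure how cultures vary. Many members sat near the top of the scale. Of the 547 probe sets in the brightest 1% of each array, 72 belonged to the family in either sample. Of the probe sets within 2-fold of the array's highest signal, family members were 56 of 172 in the untreated and 42 of 125 in the eltrombopag sample. Saturation flags were not used here.

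The labels call the cells both HL60 and stem cells. CD34, KIT, THY1 and PROM1, markers of blood stem cells, lay below the floor in both samples. Of 11 promyelocyte markers on the array, 9 were measured, with a median ratio of -0.21 and 6 below 0. The summed signal of all 11 was 15933 untreated and 16693 with eltrombopag. Most of that sum came from SRGN, at 7160 and 7685, and MYB, at 4349 and 5855. Without SRGN and MYB the sum was lower with eltrombopag. Other probe sets of SRGN gave -0.88 and 0.38. CEBPA, CSF3R and CTSG were lowest, at -1.55, -1.17 and -0.84, and MYB highest at 0.43. MPO, myeloperoxidase, gave -0.08 and 0.26 in its 2 probe sets, and the granule genes ELANE and LYZ lay below the floor in both samples. Of 12 plasma cell markers, 10 were measured, with the B-lineage factor IRF4 at 677 and 131 and JCHAIN, the joining chain of antibodies, at 7972 and 4866. All 10 had ratios below 0 in their brightest probe sets, and FCRL5 and CD27 stayed below the floor. MZB1 gave -0.28 in its brightest and 0.09 in its other probe set. The summed signal of all 12 went from 17719.5 untreated to 10814 with eltrombopag. In a bulk sample, fewer cells of a type and less RNA per cell cannot be told apart, and the part of this difference in the family's values was not tested.

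The start of each gene shows what its transcripts share. RefSeq promoter sequences (GRCh38.p14) matched 52 of the 60 genes. A C at the first listed start followed by at least 4 pyrimidines was found in 33 of 46 subunit genes (71.7%), in 1 of 6 matched paralogs, and in 4.60% of 15843 protein-coding genes. Counting any listed start, the figures were 34 of 46, 1 of 6 and 6.24%. The windows below run from 15 bases before the annotated start through the first 15 transcribed bases, and capitals mark the longest pyrimidine run that begins with C near the start. They set RPL22L1, RPL36AL and RPS27L beside their parents, and add RPL26L1, the lowest and highest small subunit genes and the lowest large subunit gene that has a listed start.

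RPL22 (chr1:6199581-6199610, minus strand): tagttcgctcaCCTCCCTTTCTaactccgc
RPL22L1 (chr3:170870181-170870210, minus strand): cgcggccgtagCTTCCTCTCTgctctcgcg
RPL36A (chrX:101390996-101391025, plus strand): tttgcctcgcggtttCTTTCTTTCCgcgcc
RPL36AL (chr14:49620612-49620641, minus strand): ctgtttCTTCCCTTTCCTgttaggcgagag
RPS27 (chr1:153990747-153990776, plus strand): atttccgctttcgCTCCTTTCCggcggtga
RPS27L (chr15:63157463-63157492, minus strand): aagttgatgccgagcgcagatcgcttgcag
RPL26L1 (chr5:172958714-172958743, plus strand): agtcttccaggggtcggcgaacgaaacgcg
RPS3 (chr11:75399503-75399532, plus strand): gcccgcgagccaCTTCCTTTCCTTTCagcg
RPS24 (chr10:78033848-78033877, plus strand): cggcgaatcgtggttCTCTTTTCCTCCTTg
RPL11 (chr1:23691764-23691793, plus strand): cgcctcctggcccataaggCCCTCggccgg

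The subunit genes, RPL22L1 and RPL36AL carry such a run across or just after the start, while RPS27L and RPL26L1 have none marked. RPS3 and RPS24, both with long runs, were the lowest and highest small subunit genes. Over measured genes other than paralogs, the median ratio was -0.07 in 33 with the C and 4 pyrimidines at the start and -0.13 in 13 without. Another motif, CCGGAAG, the core of sites for the factor GABPA, lay on either strand of 17 of 46 subunit promoters (37.0%). It lay in 14.2% of protein-coding promoters and in 10.7% of all 27305 promoters. AAGATGGC, a core of YY1 sites, lay in 4 of 46 (8.70%), against 3.91% of protein-coding and 3.03% of all promoters. No matched family promoter held both, as did only 163 of all 27305 promoters. Over measured genes other than paralogs, the median ratio was -0.14 in 17 with CCGGAAG and -0.07 in 29 without it. A match of letters is not a bound site.

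In the brightest probe sets the family stood close to the array as a whole. Of the 60 genes, 59 were measured and 57 reached the floor in both samples; RPL10L, a testis paralog, was below it, at 1 untreated and 14.27 with eltrombopag. The median ratio over the 59 was -0.09, or 0.936-fold, which is 0.03 above the median of all genes. No member was 2-fold higher or lower, against 0.65% and 2.27% of all measured genes. At the smaller size of 1.5-fold, 2 members were lower, RPL30 and RPL39L, and 0 higher, against 11.8% and 3.49% of all measured genes. Ratios below 0 were found in 45 of 59 members, 76.3%, against 63.4% of all genes, and ratios above 0 in 14, against 36.6%. Median centring, a common shift of ratios not bounded by the floor, moved the family median from -0.09 to 0.0095. It left 28 of 59 members, 47.5%, below 0 against 52.3% of all genes, so the order of the shares turned with this scaling. After quantile normalization the shares were 61.0% and 51.4%, and after lowess 52.5% and 52.9%. The middle 50% of members spanned -0.25 to -0.003, a narrower range than the -0.37 to 0.11 of all genes.

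**Figure D1:**
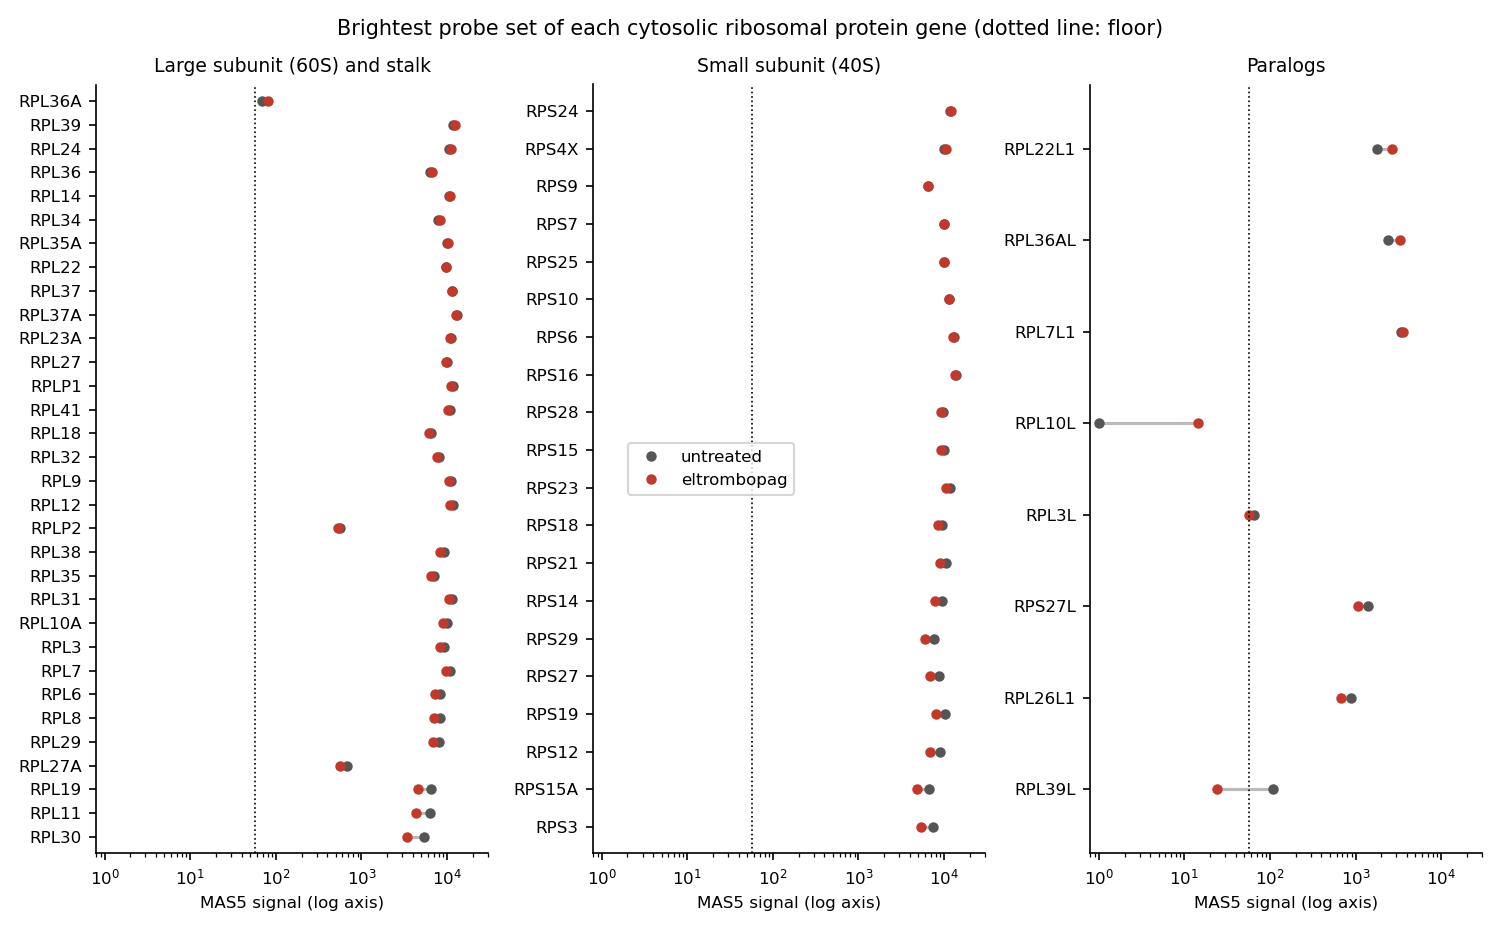
MAS5 signal (log axis) of the brightest probe set of each family gene in the untreated (grey) and eltrombopag (red) sample, ordered by ratio from highest to lowest within each panel, with the floor of 56.9 as a dotted line. Most points of a gene overlap; the widest gaps among genes above the floor are those of RPL30, RPL11, RPL19 and RPS3, and of the paralogs RPL22L1 and RPL36AL.

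The 30 large subunit genes had a median ratio of -0.08, with 23 below 0; the median was 0.02 after median centring. RPL30, a protein of the large subunit, had the lowest value, 5363 untreated and 3425 with eltrombopag, 1.57-fold lower on 1 probe set; after median centring, quantile normalization or lowess its ratio was -0.54, -0.56 or -0.56, short of 1.5-fold. RPL11, which with RPL5 and 5S rRNA can bind the p53 inhibitor MDM2, went from 6283 to 4329, a ratio of -0.54. RPL19, near the tunnel exit, went from 6527 to 4553, a ratio of -0.52. These 3 genes each rest on a single probe set without the _x_at suffix, and each was lower in the eltrombopag sample by more than the probe-set SD. RPL27A, next in order, read 687 and 558, a ratio of -0.30.

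At the other end were RPL36A, RPL39, RPL24 and RPL36. RPL36A read 68.06 and 79.93, a ratio of 0.23 on a dim probe set just above the floor. RPL39, a very short protein that lines the exit tunnel, read 11607 untreated and 12427 with eltrombopag, a ratio of 0.10. RPL24, at the interface with the small subunit, read 10527 and 11156, a ratio of 0.08, and RPL36 read 6367 and 6706, a ratio of 0.07. The last 3 differ between the samples by less than the probe-set SD. RPL37A, among the brightest probe sets of the family, read 13226 and 12861, a ratio of -0.04.

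RPLP1 and RPLP2, the acidic proteins of the stalk that recruits elongation factors, were close to the array median. RPLP1 read 11772 untreated and 11249.6 with eltrombopag, and RPLP2 read 567 and 529. Their ratios were -0.07 and -0.10, and each had another probe set that stayed under the floor.

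The 20 small subunit genes had a median ratio of -0.14, with 16 below 0. RPS3, which lines the mRNA entry channel, was lowest, at 7509 untreated and 5301 with eltrombopag, a ratio of -0.50. RPS15A read 6624 and 4849, a ratio of -0.45. RPS12 read 8864 and 6871, and RPS19, the protein most often mutated in Diamond-Blackfan anaemia, read 10217 and 7938; their ratios were -0.37 and -0.36. All 4 were lower with eltrombopag by more than the probe-set SD. The 4 highest were RPS24, RPS4X, RPS9 and RPS7, with ratios of 0.07, 0.05, 0.02 and 0.01. RPS24 read 11622 and 12159, RPS4X 10104 and 10478, RPS9 6408 and 6499, and RPS7 9921 and 10005.5. Of these 4 genes, the last 3 are represented by _x_at probe sets. RPS16, with the highest signal of the family in each sample, read 13604 and 13303, and RPS6, the substrate of the S6 kinases, 12880.5 and 12674. Their ratios of -0.03 and -0.02 differ from 0 by far less than the probe-set SD.

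The near-zero values of the brightest probe sets were in many genes, but not all, not shared by the other probe sets. Of 29 members in which several probe sets reached the floor on both arrays, the dimmest had a lower ratio than the brightest in 21 (72.4%), against 55.7% of 4345 other genes. The median difference was -0.21, against -0.04 outside the family. By brightness, the dimmest was lower in 17 of 21 members whose brightest probe set had a mean signal of at least 8000. Among members with a less bright one it was lower in 4 of 8. Outside the family, only 13 genes had so bright a probe set, and the dimmest was lower in 7. In 14 genes an _x_at probe set could be set against probe sets without that suffix, and in 14 of 14 the mean ratio of the latter was lower. The median difference was -0.25, with medians of 0.01 for the _x_at and -0.31 for the other probe sets. Outside the family, the other probe sets were lower in 56.0% of 780 genes, with a median difference of -0.04. The count was 14 of 14 after lowess, 13 of 14 after quantile normalization, 13 of 14 with a floor at the 50th percentile, and 12 of 15 without any floor. It stayed 14 of 14 after median centring, which shifts all ratios alike.

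RPL18, of the large subunit, disagreed most among its probe sets. One, an _x_at probe set, read 6504 untreated and 6184 with eltrombopag, a ratio of -0.07. A plain _at probe set of the same gene, about as bright in the untreated sample at 6772, read 4105 with eltrombopag, a ratio of -0.72. The remaining one, just above the floor, read 69.41 and 66.74. RPS16 spread nearly as widely: beside the probe set named above, a plain _at probe set went from 6466 to 4074, a ratio of -0.67, and 2 others gave -0.12 and -0.16.

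RPL37 read 11565 and 11529 in its brightest probe set, a ratio of -0.005, while 3 plain _at probe sets gave -0.14, -0.57 and -0.60. RPL14 gave 0.07 in its _x_at probe set, from 10441 to 10923, then -0.23 and -0.51 in the others. RPL31 gave -0.14, -0.71 and -0.42, the first in an _x_at probe set that read 11518 and 10455. In RPL36 and RPS9 the sign itself depended on the probe set. An _s_at probe set of RPL36 read 6828 and 5393, a ratio of -0.34, and one of RPS9 read 4257 and 2995, a ratio of -0.51. RPS9, RPL36, RPL14, RPS24, RPS7, RPS4X, RPL24 and RPL35A, all above 0 in their brightest probe set, each had at least 1 probe set below 0.

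**Figure D2:**
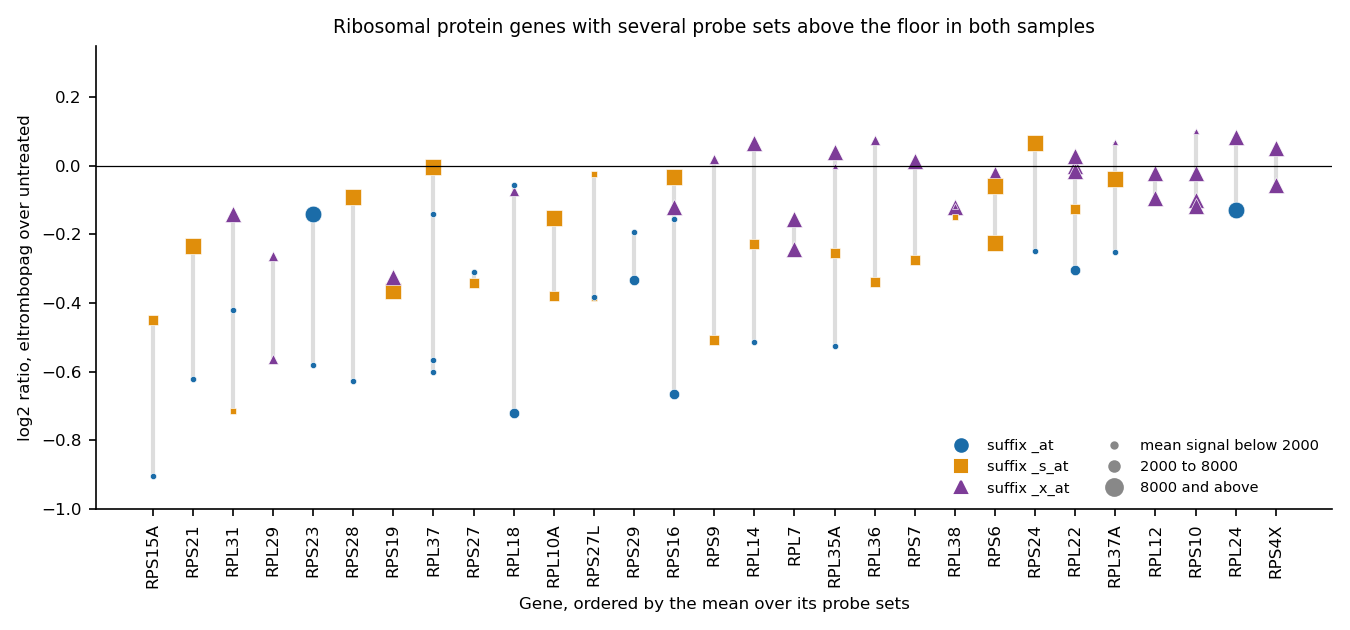
Ratio (eltrombopag over untreated, log2) of every probe set that reached the floor on both arrays for the 29 family genes with more than 1, ordered by gene mean; colour and shape give the suffix, and point size the mean signal. The mean over probe sets is below 0 in 29 of 29 genes, against 2774 of 4345 other genes, and in 21 of 29 after median centring; many _x_at probe sets (triangles) lie near 0 while plain _at probe sets (circles) reach down to -0.90.

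Of the family's 121 probe sets, 13 lay under the floor on both arrays and give no ratio. They belong to RPL7, RPL35A, RPL10L, RPLP1, RPLP2, RPS6, RPS9, RPS12, RPS14, RPS15, RPS15A and RPS28, all of which except RPL10L have a brighter probe set. RPS14 and RPS19 each had 1 more that lay under the floor with eltrombopag alone, at 102.61 and 48.68 for RPS14 and 60.65 and 43.81 for RPS19.

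Averaged over probe sets, 29 of 29 of these genes lay below 0 on the deposited scale, against 2774 of 4345 other genes with several probe sets. The family count was 21 after median centring, 25 after quantile normalization and 24 after lowess. Genes that agreed across probe sets included RPS19, at -0.36 and -0.32 on probe sets reading 10217 and 10061 untreated, RPS27, at -0.34 and -0.31, and RPL38, at -0.12, -0.15 and -0.12. RPL22, a protein of the tunnel exit region, had 5 probe sets. Its 3 _x_at probe sets gave -0.01, -0.001 and 0.03, an _s_at probe set gave -0.13, and a plain _at probe set, at 4226 and 3420, gave -0.31.

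Signal and suffix moved together with the ratio. Among the 104 family probe sets that reached the floor on both arrays, the median ratio was -0.30 in 29 with a mean signal below 2000, -0.29 in 30 between 2000 and 8000, and -0.07 in 45 at 8000 and above. Probe sets of other genes also had higher ratios when brighter, with medians of -0.12, -0.07 and 0.05 over 15954, 804 and 33 probe sets. In each of the 3 signal ranges the family median was the lower one. Lowess, quantile normalization and median centring each left the family median below that of other genes in each range. Median centring shifts all ratios alike, so it can change this gap only through which probe sets are counted in a range. After lowess, the family medians were -0.18, -0.22 and 0.01, and those of other genes -0.01, 0.01 and 0.13.

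By suffix, 32 plain _at probe sets of the family had a median of -0.36 with 29 below 0, 38 _s_at had -0.15 with 35 below 0, and 34 _x_at had -0.04 with 22 below 0. Outside the family the medians were -0.11, -0.13 and -0.10, with 5987 of 9700, 3340 of 5306 and 900 of 1438 probe sets below 0, so the family's _x_at count was near that of other genes. Within the range from 2000 to 8000, plain _at gave -0.42 over 10 probe sets, _s_at -0.27 over 13 and _x_at -0.07 over 7; at 8000 and above, _s_at gave -0.07 over 19 and _x_at -0.05 over 23. Without _x_at probe sets, the family still went from -0.38 over 25 probe sets below 2000 and -0.33 over 23 in the middle range to -0.08 over 22 at the top. Signals near the scale's upper end and probes shared with other transcripts both moved with the ratio, and their parts in it were not tested.

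**Figure D3:**
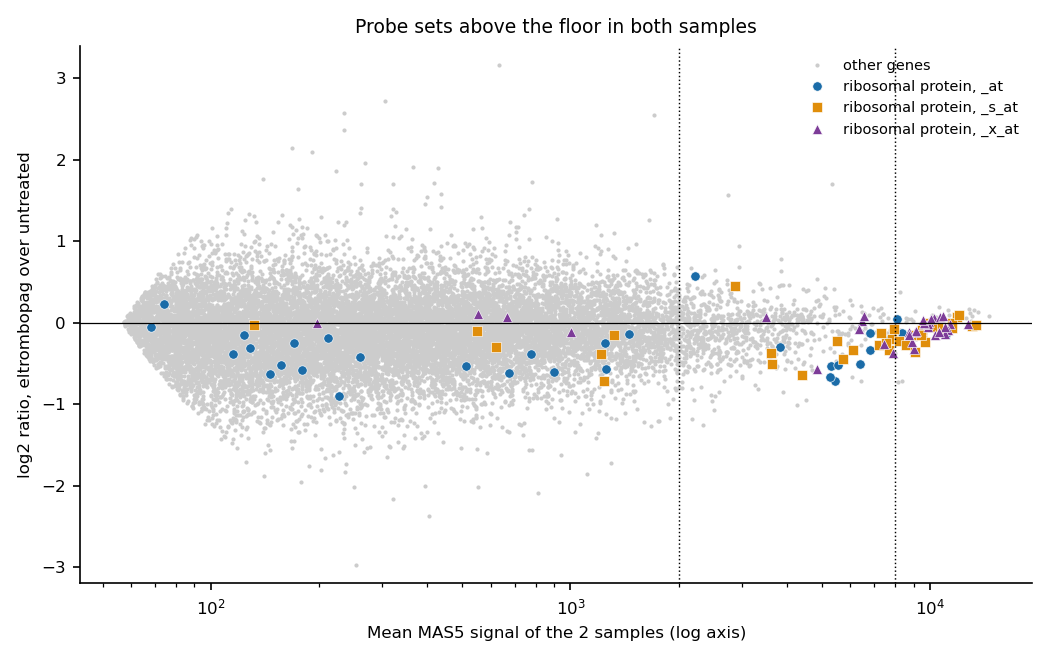
Ratio (eltrombopag over untreated, log2) against mean MAS5 signal (log axis) for all probe sets with 1 named gene that reached the floor on both arrays; grey points are other genes, coloured points are family members by suffix, and dotted lines stand at 2000 and 8000. Of the family points from 2000 to 8000, 25 of 30 lie below 0, against 59.8% of other genes' probe sets; those at 8000 and above have a median of -0.07.

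The family's place among all genes moved with the choice of probe set. Without _x_at and _s_at probe sets, the family kept plain _at ones alone, and 29 members were measured, with a median of -0.38 and 26 below 0. All genes under this choice, which keeps other suffixes outside the family, had a median of -0.13 with 64.3% below 0. With the mean over all measured probe sets, the family median was -0.19 with 53 of 59 members below 0, against -0.13 and 65.5% for all genes. The small subunit moved most with this choice, from -0.14 to -0.25. A separate set of 65 probe sets, each naming a family gene beside other genes, was read without assigning genes: 56 reached the floor on both arrays, 50 of them with ratios below 0, with medians of -0.35 over 16 probe sets from 2000 to 8000 and -0.10 over 31 at 8000 and above.

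Paralogs of ribosomal proteins ranged more widely than the subunit genes, whose ratios ran from -0.65 to 0.23. Of 8 with a probe set, 7 were measured, with ratios from -0.94, a bound, to 0.58. RPL22L1, a paralog of RPL22 that can take its place in the ribosome, read 1781 untreated and 2655 with eltrombopag, 1.49-fold higher. It had the highest ratio of the family, 0.58 higher than that of RPL22, and it rests on 1 plain _at probe set. After each of the 3 rescalings RPL22L1 passed 1.5-fold, with ratios of 0.68, 0.68 and 0.66. RPL36AL, which differs little in sequence from RPL36A, read 2424 and 3323, 1.37-fold higher, in an _s_at probe set. RPL7L1, a nucleolar relative of RPL7 that acts in subunit assembly, read 3420 and 3593, a ratio of 0.07, on 1 _x_at probe set alone.

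RPL39L, a testis and tumour paralog of RPL39, lay at 109.49 untreated and at 24.23, below the floor, with eltrombopag, at least 1.92-fold lower. Its parent had a ratio of 0.10. With the floor at the 50th percentile its ratio was -1.77. It is dim in both samples and rests on 1 probe set. RPS27L, a p53 target gene and paralog of RPS27, read 1379 and 1056, a ratio of -0.39, beside -0.34 for RPS27. Of its other probe sets, 1 gave -0.38 and 1 gave -0.02. RPL26L1 read 883 and 674.5, a ratio of -0.39. RPL3L, a muscle paralog, read 65.71 and 56.83, at the floor, and has no settled direction. Beyond the probe-set SD, RPL22L1 and RPL36AL were higher and RPL39L, RPS27L and RPL26L1 lower.

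**Figure D4:**
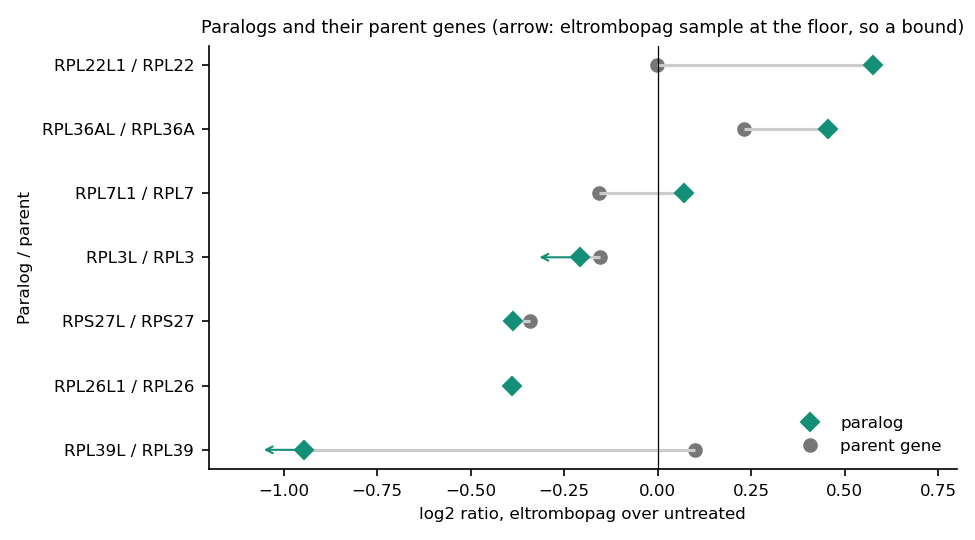
Ratio (eltrombopag over untreated, log2) of the 7 measured paralogs (green diamonds) and of their parent genes (grey circles, where a probe set names the parent alone); arrows mark paralogs at the floor with eltrombopag, whose ratio is a bound. RPL22L1 stands 0.58 above its parent; RPL39L lies below its parent by an amount that the floor bounds but does not fix.

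Groups within the ribosome were compared by their brightest probe sets. Of 10 measured proteins of the 40S head, which moves with tRNA, 10 had ratios below 0, with a median of -0.14, while the other 10 small subunit genes had a median of -0.08 with 6 below 0. Of all measured genes, 63.4% were below 0. The contrast depends on the probe set: RPS24, RPS4X, RPS9 and RPS7, the others above 0, had probe-set means of -0.09, -0.001, -0.24 and -0.13. It also depends on scaling, and the counts below 0 in these groups are on the deposited scale. RPS28, RPS16, RPS10 and RPS25 of the head had ratios of -0.09, -0.03, -0.02 and -0.004, and RPS6 of the others -0.02. Median centring, which moved the family median from -0.09 to 0.0095, put RPS6 and those head genes above 0. Proteins with bacterial counterparts had a median of -0.15 over 19 genes with 18 below 0, and the 33 others, found in archaea or eukaryotes alone, -0.05 with 23 below 0. Among those others, RPL14, RPL24, RPL35A, RPL36, RPS4X, RPS7 and RPS24, above 0 in their brightest probe set, had probe-set means below 0. In the head group RPS3, RPS12 and RPS19 were lowest and RPS25 highest, with a ratio of -0.004. The tunnel exit group had a median of -0.09 over 8 genes, against -0.08 in the other 24 large subunit genes. Genes mutated in Diamond-Blackfan anaemia, an inherited failure of red cell formation, had a median of -0.11 over 14 genes, against -0.09 over 38. No member of these lists passed 2-fold, and the differences between the medians were not tested.

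Other genes known for TOP transcripts had a median close to the family's. Of 20 listed, 16 were measured, with a median ratio of -0.13, 10 below 0 and 0 past 1.5-fold. For this list and those that follow, the shares of all measured genes were 63.4% below 0, 11.8% past 1.5-fold lower and 3.49% higher. BTF3, of the nascent chain complex, read 3706 untreated and 2565 with eltrombopag, a ratio of -0.53, with -0.69 and -0.46 in its other probe sets. FAU, whose product is cut to yield the small subunit protein eS30, read 5228 and 3666, a ratio of -0.51. HNRNPA1 and EEF1A1, highest of the list, both had 0.08, although HNRNPA1 gave -0.31 and 0.34 in its other probe sets. EEF1A1, the elongation factor that brings tRNA, also differed by suffix: it read 12706 and 13475 in its brightest _x_at probe set, 3 more _x_at probe sets gave 0.02, 0.04 and -0.03, and a plain _at probe set went from 949 to 591, a ratio of -0.68. EEF2, the translocase, gave -0.20 and 0.02.

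**Figure D5:**
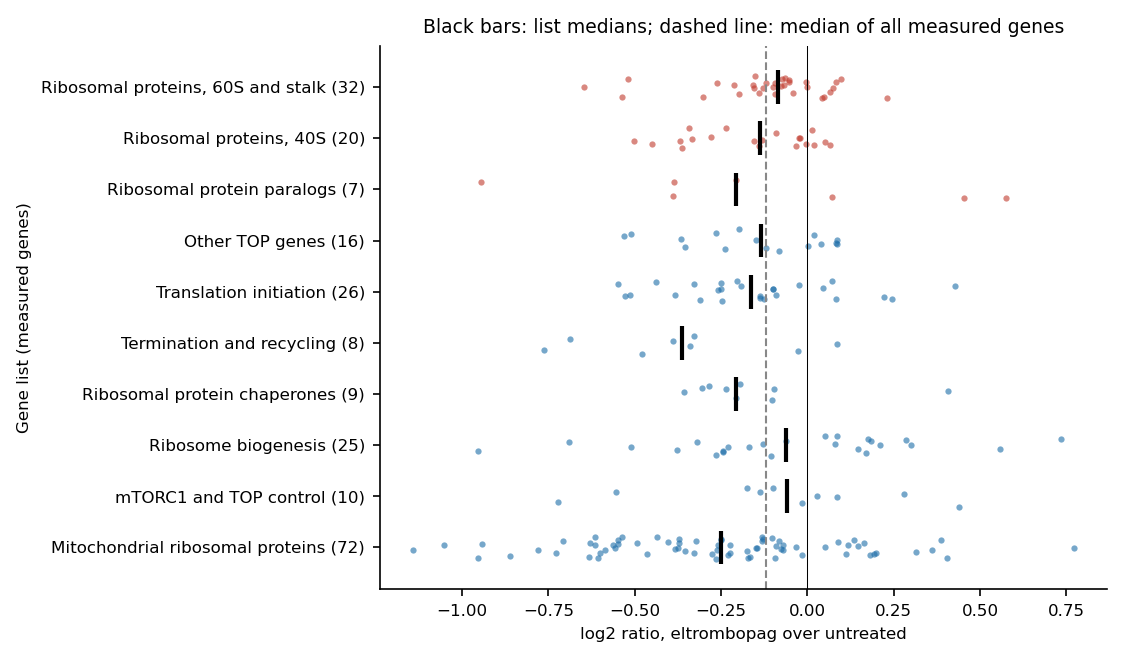
Ratio (eltrombopag over untreated, log2) of every measured gene in the family's 3 groups (red) and in 7 related lists (blue), with list medians as black bars, the number of measured genes in parentheses and the median of all measured genes as a dashed line. The medians of the 60S with stalk and the 40S genes are -0.08 and -0.14; that of the paralogs is -0.21, or 0.07 over the 5 that reached the floor on both arrays, and the termination and recycling list has the lowest median, -0.36.

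Initiation factors had a median of -0.16 over 26 genes, 20 below 0 and 0 past 1.5-fold. The lowest were EIF3J and EIF3I, subunits of the scaffold factor eIF3, at -0.55 and -0.53. EIF2B5 and EIF2B2, of the eIF2 exchange factor, were highest at 0.24 and 0.43. Both EIF3J and EIF2B5 turned sign in their other probe set, at 0.30 and -0.41. Termination and recycling genes had the lowest median of these lists, with a median of -0.36 over 8 genes, 7 below 0 and 2 past 1.5-fold lower, against 63.4% and 11.8% of all measured genes. EIF5A, which helps stalled ribosomes, read 1096 and 646, with ratios of -0.76, -0.90 and -1.57 in its 3 probe sets. HBS1L, of ribosome rescue, had -0.69 in its brightest probe set but 0.80 in its dimmest. GSPT1 and PELO had -0.03 and 0.09. Chaperones dedicated to ribosomal proteins had a median of -0.21 over 9 genes, 8 below 0 and 0 past 1.5-fold. RPS19BP1 and GRWD1 were lowest, at -0.36 and -0.31, and LTV1, a 40S assembly factor, highest at 0.41, followed by HEATR3 at -0.10.

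Ribosome biogenesis genes split by member, with a median of -0.06 over 25 genes, 13 below 0, 2 past 1.5-fold lower and 1 past 1.5-fold higher. Of all measured genes, 63.4% were below 0, 11.8% past 1.5-fold lower, 3.49% past 1.5-fold higher and 2.27% past 2-fold lower. UBTF, the RNA polymerase I factor, read 1245 and 643, a ratio of -0.95, and NOP10, a small nucleolar protein, had -0.69. LYAR and RIOK1 had 0.73 and 0.56. Mitochondrial ribosomal proteins, coded by other genes and sharing no subunit with the cytosolic ribosome, had a median of -0.25 over 72 genes, with 57 below 0, 15 past 1.5-fold lower, 1 past 1.5-fold higher and 2 past 2-fold lower. Of mTORC1 and TOP control genes, 10 of 11 were measured, with a median of -0.06 and 6 below 0. EIF4EBP2, a repressor of initiation, had -0.72 and was past 1.5-fold lower, RHEB, the activator of mTORC1, -0.55, and TSC2 and TSC1, its inhibitors, 0.28 and 0.44. LARP1 had -0.17 in its brightest probe set, 0.07 in an _x_at and -0.47 in an _s_at one. Of 7 factors tied to transcription of the family, 0 passed 1.5-fold and 4 had ratios below 0 in their brightest probe sets. By these values TBP and MYC were lowest, at -0.24 and -0.12, and SP1 and MAX highest, at 0.23 and 0.39. YY1 gave -0.10 in its brightest probe set, -0.05 in an _s_at one, but -0.62 and -0.58 in plain _at ones. GABPA gave -0.10 and 0.49, and other probe sets of MAX gave 0.58 and -0.40.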

How the data were processed

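Transcript signals of 2 samples were read from the authors' deposited table, a linear intensity for every probe set. The values are MAS5 signals per the submitters' processing notes. The scaling target was not given in the sources used here, nor was the version, and detection calls were not used. RNA was extracted with Trizol per the labels' protocols. Genes came from the platform annotation: 41091 probe sets name 1 gene, 1801 several and 11721 were not listed. RefSeq identifiers matched 41037 of them and changed 0 symbols. The family and all gene lists were chosen with earlier results of these data known. Signals were taken as deposited, floored at the 60th percentile and put on a log2 scale. Named genes are the extremes of each role, all paralogs, members past 1.5-fold, the 5 with the widest probe-set disagreement, members with a probe set under the floor, the brightest member, the extremes of each related list and a panel of well-known genes. RPL37A, RPL38, RPS10, JCHAIN, IRF4, MZB1, CEBPA, CSF3R, CTSG, MYB, MPO, SRGN, GABPA and YY1 were named after their values were seen. Scaling, floor and probe-set choices were varied (lowess span 0.3). The functions were tested on simulated data with Python 3.11.15, pandas 2.3.3, numpy 2.4.6 and statsmodels 0.14.6. Having only 1 array per group limits the precision.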

Additional observations from a re-analysis of the deposited data

How the results depend on the processing

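No paired analysis was possible because each group holds 1 sample. Median centring moved the family median to 0.0095, that of 60S genes to 0.020, of 40S genes to -0.031, of paralogs to -0.10 and of other TOP genes to -0.030, with 28 members below 0. Quantile normalization gave -0.079 for paralogs and -0.023 for other TOP genes. Each of these 2 scalings, and lowess alone or with the mean over probe sets, left 1 member past 1.5-fold lower, RPL39L, and put 1 past 1.5-fold higher, RPL22L1, as did lowess without _x_at on the higher side. Of all genes, 8.10% were past 1.5-fold lower and 5.41% higher after median centring. The shares were 7.54% and 5.73% after quantile normalization, and 7.91% and 5.40% after lowess alone. A floor at the 50th percentile put 1 member, RPL39L, past 2-fold lower. The 75th percentile left 1 past 1.5-fold lower, against 9.26% of all genes, and a paralog median of 0.071. With no floor, 1 was past 2-fold lower, 1 past 2-fold higher (RPL10L, near 0 signal) and the same 1 past 1.5-fold higher, and the paralog median was -0.069. The mean and the median over probe sets both gave -0.25 for 40S genes. Without _x_at, 4 of 50 members were past 1.5-fold lower, against 12.2% of all genes. Without _x_at and _s_at, 29 members remained, 26 below 0 and 7 past 1.5-fold lower, against 64.3% and 12.7% of all genes. The medians were -0.38 for the family, -0.28 for 60S, -0.56 for 40S and -0.38 for paralogs. The dimmest probe set that reached the floor on both arrays gave -0.21 for the family, -0.28 for 40S and 6 members past 1.5-fold lower, against 14.2% of all genes. That setting, the inclusion of probe sets naming several genes, and the 2 lowess combinations were chosen after seeing the data. Signals near the floor and near the scale's top limit what these arrays resolve.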
